A study of Mus musculus with 2 samples.

Results

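Collagens and laminins are the gene families described here, taken as every row of the deposited gene table whose symbol is Col, a number, the letter a and a number, or Lama, Lamb or Lamc and a number. There were 55 such genes among 23997 rows, 44 collagens and 11 laminins, and all 55 had an estimate above 0 in both libraries. Polyadenylated RNA had been sequenced from medullary thymic epithelial cells (mTECs) sorted for high MHC class II, from pools of C57BL/6 mice. There was 1 library labelled Aire-KO, of genotype Aire-/-, and 1 library labelled WT. The labels used here do not state the size of the pools, the age and sex of the animals or the way Aire was inactivated. Aire-KO and WT below name the libraries so labelled, and lower or higher means in the Aire-KO library relative to the WT library.

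With 1 library for each genotype there is no replicate check and no test, and no spread between animals or libraries can be given. Values are FPKM, read fragments scaled to transcript length and to sequencing depth, so levels are compared per length. Fragments behind each value were estimated from the steps of low values, about 55000000 in all in the Aire-KO library and 47900000 in the WT library, and the 95% intervals given for ratios cover counting error only. In the Aire-KO library Aire itself stood at 640.2 FPKM, against 220.6 FPKM in the WT library. That value covers the whole transcript and so does not check a deleted part. All 13 mTEC markers were above 0 in both libraries, with H2-Aa at 11948 FPKM in Aire-KO and 8398 FPKM in WT.

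Collagens are proteins whose chains wind in threes into a triple helix. Fibrillar types build the fibres of bone, skin, tendon and cartilage, type IV forms the net of basement membranes, and other types decorate fibrils or anchor cells to them. Laminins are cross-shaped trimers of an alpha, a beta and a gamma chain that lie next to epithelial cells in the basement membrane. Medullary thymic epithelial cells make such matrix for their own support, and through Aire they also show T cells proteins typical of other tissues, among which several collagens are known targets of autoimmune disease.

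Most collagen and laminin genes above a minimum level differed by less than 2-fold, and 11 of the 13 that differed more were lower. A gene was called lower or higher when log2((Aire-KO FPKM + 0.1)/(WT FPKM + 0.1)) reached a 2-fold difference and the mean of both libraries was at least 0.5 FPKM. The rule goes by size alone, and the 0.1 FPKM added to each value understates differences of weak genes. Within 2-fold below means on this scale. Of the 55 genes, 46 reached the minimum and 9 did not. Of the 46 genes, 11 were lower, 2 higher and 33 neither. Of all 15906 genes at that mean, 20.5% were lower and 7.09% higher. The 46 included 23.9% lower and 4.35% higher, shares near those of all genes. The median log2 ratio was 0.08 for the 46 genes and 0.05 for all genes. Genes of one list are not independent, and these shares describe these libraries.

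The share of lower genes differed between ranges of the mean level of both libraries. A gene can reach the lowest range through 1 library alone, as Col13a1 did at 0.182 FPKM in Aire-KO and 1.06 FPKM in WT. The ranges therefore depend on the same values as the calls, and the shares are a description only. Between 0.5 and 2 FPKM, 7 of 13 collagen and laminin genes were lower, 53.8%, against 44.2% of all genes at that level. Between 2 and 10 FPKM, 4 of 22 were lower, 18.2%, against 20.4% of all genes. At 10 FPKM or more, 0 of 11 were lower and 1 was higher, while 9.69% of all genes were lower and 6.73% higher. The median log2 ratio was -1.001, 0.26 and 0.46 in these 3 levels, and -0.72, 0.04 and 0.17 for all genes.

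**Figure D1:**
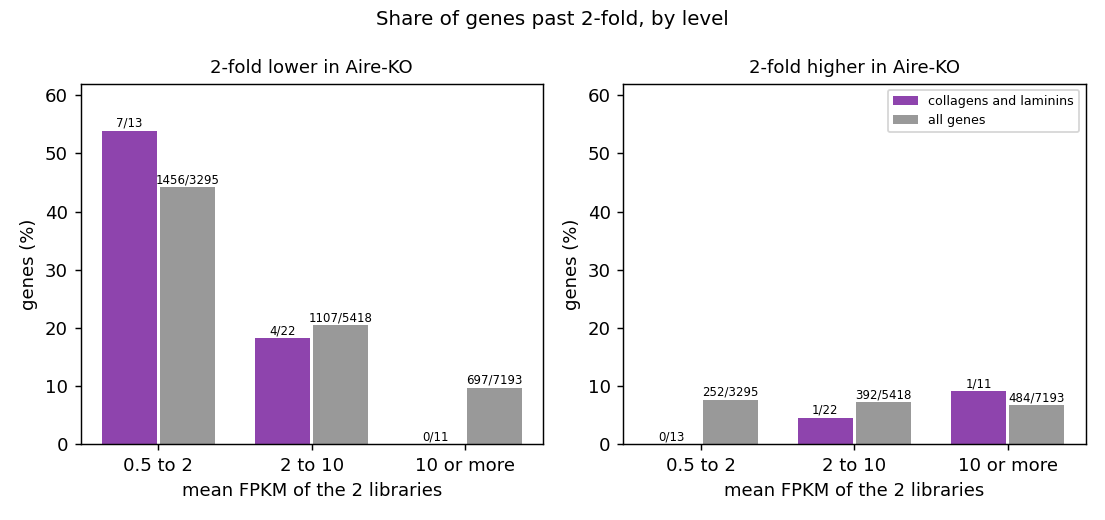
Percent of genes past the 2-fold rule in 3 ranges of mean FPKM, for collagens and laminins and for all genes, with the lower calls on the left and the higher calls on the right. The 7 of 13 lower genes in the weakest range stand beside 0 of 11 in the strongest.

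Among the most abundant members were the 2 ubiquitous type IV chains and the 2 core type VI chains. Col4a1 stood at 51.1 FPKM in the Aire-KO library and 37.1 FPKM in the WT library. Col6a1 was at 46.3 and Col6a2 at 45.5 FPKM in Aire-KO, against 29.5 and 24.8 FPKM in WT. Col4a2 was at 23.9 FPKM in Aire-KO and 17.4 FPKM in WT. All 4 were higher in Aire-KO by less than 2-fold. Together they made up 38.0% of the summed FPKM of all 55 genes in Aire-KO and 29.9% in WT. Summed over the 44 collagens the level was 333.7 FPKM in Aire-KO and 272.8 FPKM in WT, and over the 11 laminins 105.2 FPKM in Aire-KO and 90.9 FPKM in WT. The log2 ratios of these sums were 0.29 and 0.21, and 0.08 for the sum over all genes.

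**Figure D2:**
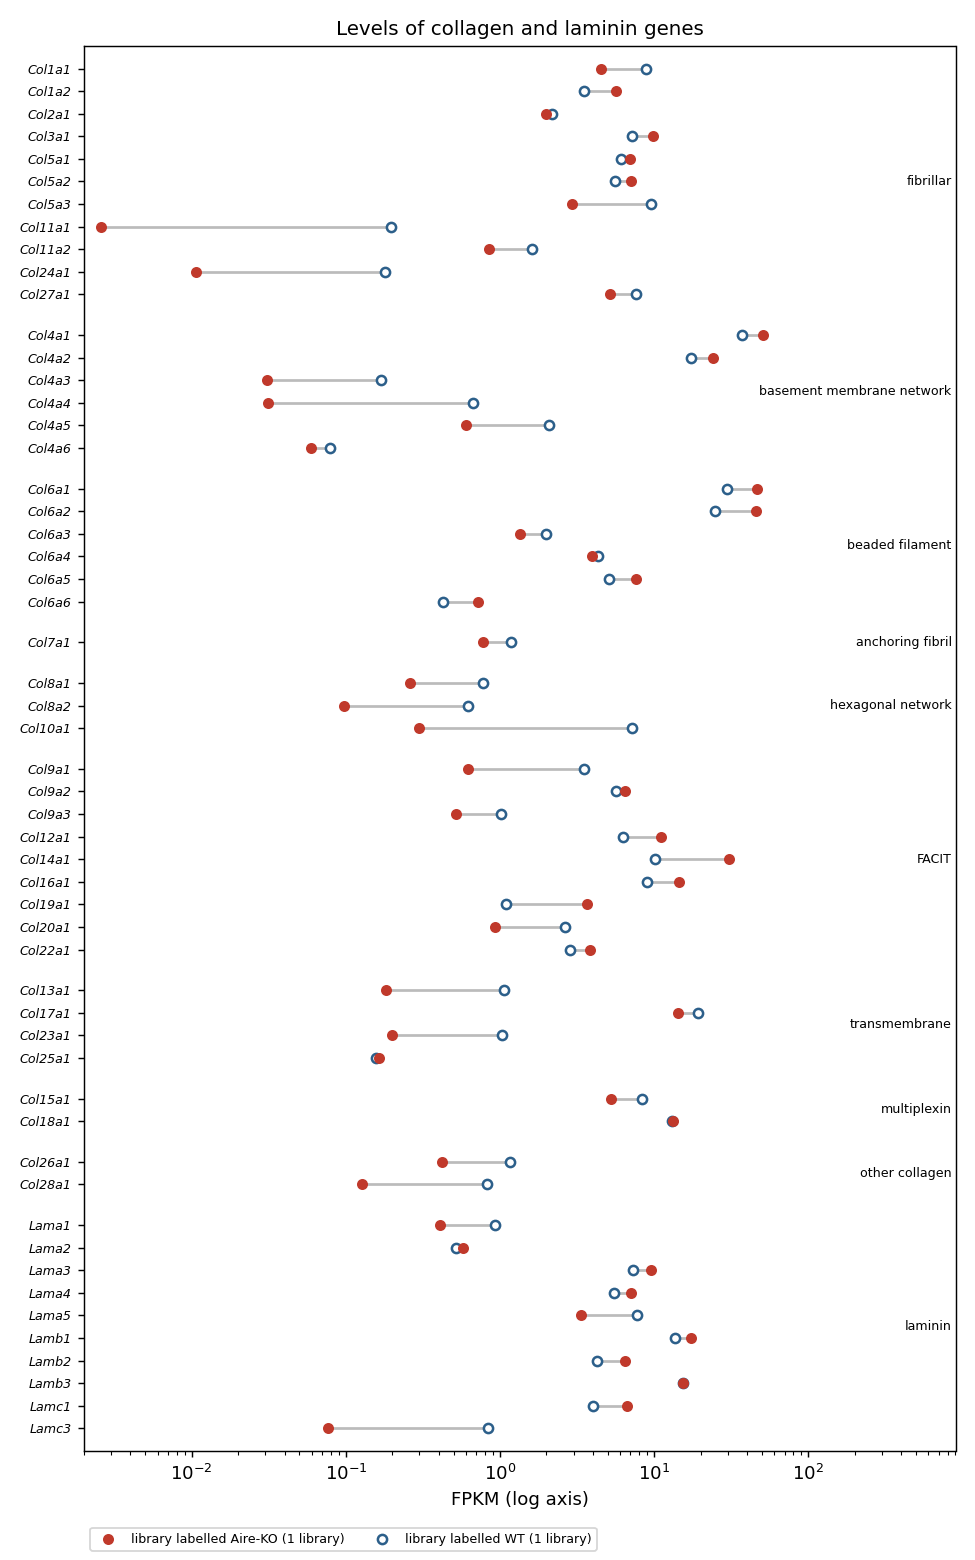
FPKM of 54 of the genes on a log axis, filled points for the Aire-KO library and open points for the WT library, grouped by structural class. The strongly expressed type IV, type VI and laminin chains lie close together in both libraries, and the long lines belong to weak genes such as Col11a1 and to Col10a1.

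Of the type IV chains, which form the basement membrane net, 3 reached the minimum mean, and only Col4a5 of these passed the rule. Col4a1 and Col4a2, which assemble together in nearly all basement membranes, had log2 ratios of 0.46 and 0.46. Their levels kept 1 proportion, with 2.14 times as much Col4a1 as Col4a2 in Aire-KO and 2.14 times in WT. Col4a5, a chain of kidney and skin basement membranes that is mutated in Alport syndrome, was lower, at 0.601 FPKM in Aire-KO and 2.09 FPKM in WT (log2 -1.64). Its partners were below the minimum mean. Col4a4 stood at 0.0314 FPKM in Aire-KO, 17 estimated fragments, against 0.664 FPKM in WT, 315 fragments. Col4a3, whose product is the autoantigen of Goodpasture disease, was at 0.0306 FPKM in Aire-KO and 0.170 FPKM in WT, 14 and 68 fragments. Without the added 0.1 FPKM the log2 ratio was -4.40 (-5.21 to -3.71) for Col4a4 and -2.48 (-3.42 to -1.63) for Col4a3. Col4a6, at 0.0598 FPKM in Aire-KO and 0.0783 FPKM in WT, had an interval of -1.31 to 0.52 that takes in 0.

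Of the 10 laminin genes at the minimum mean 8 were within 2-fold. The alpha3 and beta3 chains belong to the laminin that binds hemidesmosomes. Lama3 was at 9.52 FPKM in Aire-KO and 7.30 FPKM in WT, and Lamb3 at 15.5 FPKM in Aire-KO and 15.3 FPKM in WT. Their log2 ratios were 0.38 and 0.01. The widely used beta1 and gamma1 chains were also within 2-fold, Lamb1 at 17.4 FPKM in Aire-KO and 13.6 FPKM in WT and Lamc1 at 6.64 and 4.003 FPKM in the same order.

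Only alpha5 and alpha1 passed the rule among laminins, both lower. Lama5, the major alpha chain of mature epithelial and vascular basement membranes, was at 3.36 FPKM in Aire-KO and 7.74 FPKM in WT, a log2 ratio of -1.18. Without the added value it was -1.20 (-1.28 to -1.13). Lama1, the alpha chain of the early embryo, was at 0.410 FPKM in Aire-KO and 0.922 FPKM in WT, and its log2 ratio of -1.001 lay just inside the rule. Lama4, found in vessels and mesenchyme, was at 7.12 FPKM in Aire-KO and 5.45 FPKM in WT. Lamb2, at 6.45 and 4.28 FPKM in the same order, and the muscle chain Lama2, at 0.578 and 0.518 FPKM, were within 2-fold too. Lamc3 fell short of the minimum mean, at 0.0769 FPKM in Aire-KO and 0.841 FPKM in WT, 24 and 228 estimated fragments.

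The fibrillar collagens, which carry the tensile strength of connective tissue, had 1 lower gene among 9 at the minimum mean. That gene was Col5a3, a chain found in some type V trimers, at 2.92 FPKM in Aire-KO and 9.49 FPKM in WT, a log2 ratio of -1.66. Without the added value its ratio was -1.70 (-1.81 to -1.59). The other type V chains, Col5a1 and Col5a2, which start and thin fibrils, were at 6.99 and 7.03 FPKM in Aire-KO and at 6.09 and 5.59 FPKM in WT. Type I collagen, the main protein of bone and tendon, is built from Col1a1 and Col1a2 chains, and these lay on opposite sides of 0. Col1a1 was at 4.49 FPKM in Aire-KO and 8.89 FPKM in WT, a log2 ratio of -0.97 just outside the rule. Col1a2 was at 5.62 FPKM in Aire-KO and 3.50 FPKM in WT (log2 0.66). The level of Col1a1 relative to Col1a2 was thus 0.799 in Aire-KO and 2.54 in WT. Col3a1 of vessel walls and skin was at 9.86 FPKM in Aire-KO and 7.21 FPKM in WT, and Col27a1 at 5.20 and 7.58 FPKM in the same order.

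Cartilage fibrils contain type II, type IX and type XI chains, and these did not move as a block. Col2a1, the main cartilage collagen, was at 1.98 FPKM in Aire-KO and 2.17 FPKM in WT. Col11a2 was at 0.845 FPKM in Aire-KO and 1.62 FPKM in WT (log2 -0.87). Col11a1 rested on 1 estimated fragment in Aire-KO, 0.00260 FPKM, and on 70 in WT, 0.196 FPKM, and Col24a1 on 4 and 60 fragments. Col9a1 was lower, at 0.621 FPKM in Aire-KO and 3.48 FPKM in WT (log2 -2.31). Its trimer partners differed less, Col9a2 at 6.48 FPKM in Aire-KO and 5.69 FPKM in WT, and Col9a3 at 0.515 and 1.01 FPKM in the same order (log2 -0.86). Exons of Col9a3 share 234 bp with Tcfl5 on the other strand, which stood at 0.0388 FPKM in Aire-KO and 0.650 FPKM in WT.

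The hexagonal network class held the lowest ratio among genes at the minimum mean. Col10a1, the collagen of hypertrophic cartilage, stood at 0.299 FPKM in Aire-KO and 7.22 FPKM in WT, which are 48 and 1013 estimated fragments. Its log2 ratio was -4.20, and -4.59 without the added value (-5.04 to -4.18). Col8a1, a collagen of the cornea and of vessels, was lower at 0.261 FPKM in Aire-KO and 0.779 FPKM in WT (log2 -1.28), just above the minimum mean. Its partner Col8a2 was under the minimum, at 0.0975 FPKM in Aire-KO and 0.616 FPKM in WT.

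Collagens that sit on fibril surfaces, the FACIT class, held both higher genes. Col14a1, which binds type I fibrils, was at 30.7 FPKM in Aire-KO and 10.1 FPKM in WT, a log2 ratio of 1.59. Without the added value it was 1.60 (1.54 to 1.66), on 9225 and 2656 estimated fragments. Col19a1, a minor collagen of muscle and nervous tissue, was at 3.67 FPKM in Aire-KO and 1.09 FPKM in WT (log2 1.67). Besides Col9a1, Col20a1 was lower, at 0.932 FPKM in Aire-KO and 2.64 FPKM in WT (log2 -1.41). Within 2-fold lay Col12a1, a relative of Col14a1, at 11.1 FPKM in Aire-KO and 6.26 FPKM in WT. Col16a1 at 14.6 and 9.001 FPKM and the tissue junction collagen Col22a1 at 3.85 and 2.85 FPKM, Aire-KO before WT, were also within 2-fold.

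The type VI chains, which form beaded filaments around cells, had 0 of 6 genes past the rule, with a median log2 ratio of 0.60. Col6a1 and Col6a2 assemble with 1 further chain, and in these libraries the candidates for it were far weaker. Col6a3 was at 1.35 FPKM in Aire-KO and 1.99 FPKM in WT, so that Col6a1 exceeded it by 34.2 times in Aire-KO and 14.8 times in WT. Of the alternatives to Col6a3, Col6a5 was at 7.58 FPKM in Aire-KO and 5.09 FPKM in WT, and Col6a4 at 3.98 and 4.29 FPKM in the same order. Both exceeded Col6a3 in each library. Col6a6 was at 0.722 FPKM in Aire-KO and 0.427 FPKM in WT.

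Transmembrane and anchoring collagens of skin were within 2-fold, and 2 weaker membrane collagens, Col13a1 and Col23a1, were lower. Col17a1, the hemidesmosome protein targeted in bullous pemphigoid, was at 14.3 FPKM in Aire-KO and 19.2 FPKM in WT (log2 -0.42). Col7a1, the anchoring fibril protein targeted in acquired epidermolysis bullosa, was at 0.778 FPKM in Aire-KO and 1.18 FPKM in WT (log2 -0.54). Col13a1, which helps mature the neuromuscular junction, was lower at 0.182 FPKM in Aire-KO and 1.06 FPKM in WT (log2 -2.03). Col23a1 was lower as well, at 0.198 FPKM in Aire-KO and 1.03 FPKM in WT (log2 -1.92). Col25a1, at 0.164 FPKM in Aire-KO and 0.156 FPKM in WT, was under the minimum mean.

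Of the remaining types, Col18a1, whose end piece is endostatin, was at 13.2 FPKM in Aire-KO and 12.9 FPKM in WT, and its relative Col15a1 at 5.21 and 8.35 FPKM in the same order. Col26a1 was lower, at 0.422 FPKM in Aire-KO and 1.16 FPKM in WT (log2 -1.28). Col28a1 lay just under the minimum mean, at 0.127 FPKM in Aire-KO and 0.819 FPKM in WT. At a 4-fold difference 3 of the 46 genes were lower, Col10a1, Col9a1 and Col13a1, and 0 were higher. The shares over all genes were 11.9% lower and 0.629% higher. Where the mean had to reach 2 FPKM, 22 genes lay under 10 FPKM and 11 at 10 FPKM or more. Among them 4 passed as lower and 2 as higher, against 14.3% and 6.95% of all genes. Those 4 were Col10a1, Col9a1, Col5a3 and Lama5. In the authors' deposited table none of the 55 genes was called. The share of all genes called there was not counted, so this count is not a result about these genes. The smallest p there among the 55 was 0.0266 for Col14a1 with q of 0.569, and it compares these libraries only.

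**Figure D3:**
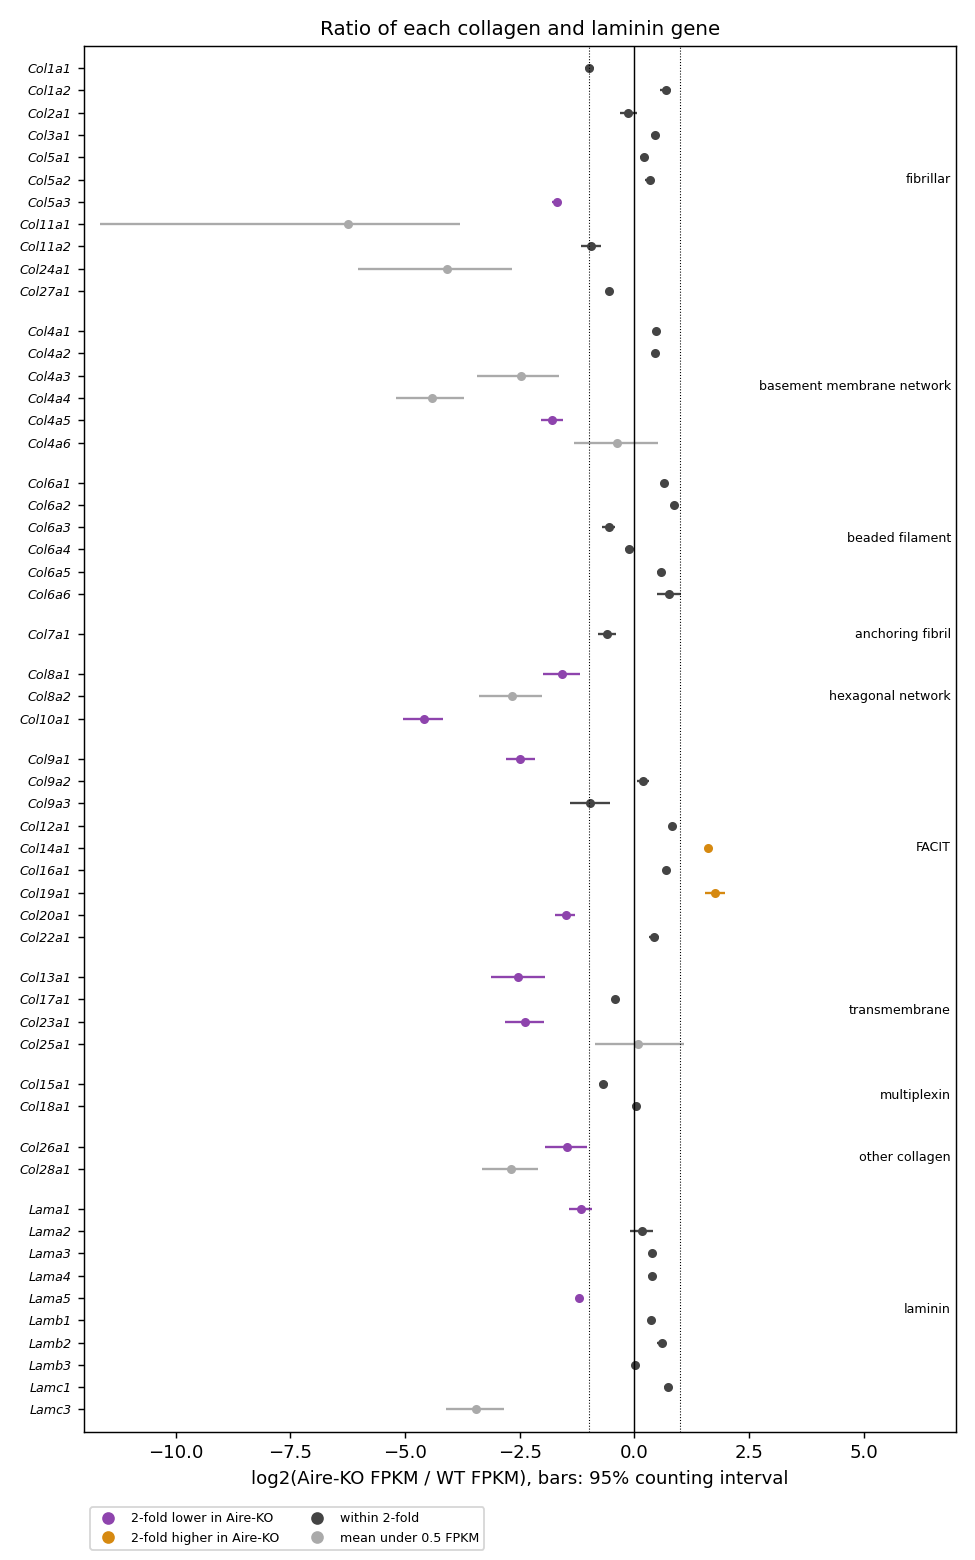
Log2 ratio of Aire-KO over WT without an added value for 54 of the genes, with bars for the 95% counting interval and colours for the 2-fold rule. Col10a1 has the lowest ratio among genes at the minimum mean, Col14a1 and Col19a1 stand to the right of the upper dotted line, and wide intervals belong to genes with few fragments.

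Several of these genes are neighbours, and neighbours did not always differ alike. Gene spans and the distances between genes are those of the RefSeq gene table on GRCm38.p6, the same build as mm10, and shared exon bases are those of GENCODE M21, which places some gene ends differently. On chromosome 1, Col9a1 (24177589 to 24252738, + strand) and Col19a1 (24257683 to 24587922, - strand) lie 4.94 kb apart. That gap separates the ends of the 2 genes, and their starts are much further apart. Col9a1 was lower and Col19a1 higher, with log2 ratios of -2.31 and 1.67. Also on chromosome 1, Col3a1 and Col5a2 lie 24.6 kb apart and had ratios of 0.44 and 0.33. The head-to-head pair Col4a1 and Col4a2 on chromosome 8 overlaps by 85 bp and had nearly the same ratio. Col4a3 and Col4a4 on chromosome 1 overlap by 114 bp and had ratios of -1.05 and -2.54 with the added value. Both lay under the minimum mean. In the X chromosome pair Col4a5 and Col4a6, 1.27 kb apart, only Col4a5 reached the minimum mean. Col6a1 and Col6a2 on chromosome 10, 85.2 kb apart, had ratios of 0.65 and 0.87. On chromosome 9, Col6a4, Col6a5 and Col6a6 lie in a row, 27.9 and 27.8 kb apart, with ratios of -0.11, 0.56 and 0.64. Col10a1 (chromosome 10, 34389981 to 34397085) shares 18 bp of exon with Nt5dc1 on the other strand. Nt5dc1 stood at 10.3 FPKM in Aire-KO and 10.1 FPKM in WT. The kit keeps the strand of the RNA, but whether counting used it is not known here, so reads in such shared stretches cannot be told apart.

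Sequences around starts are shown for Col10a1, for the neighbours Col9a1 and Col19a1, and for Col4a4 and Col4a1 from the type IV pairs. Any link of these sequences to the ratios was not tested. Each runs 5′ to 3′ along the gene from 250 bases before to 50 bases after the start set for that window, taken from RefSeq on GRCm38.p6. Such a start can differ from the edge of the gene span given above, and the Col19a1 window lies wholly inside its span. Capitals mark CG pairs, the sites of DNA methylation, and TATAAA where it occurs. For Col9a1 both starts are given, and the second is that of its main isoform.
Col10a1, chr10:34389731-34390030, + strand: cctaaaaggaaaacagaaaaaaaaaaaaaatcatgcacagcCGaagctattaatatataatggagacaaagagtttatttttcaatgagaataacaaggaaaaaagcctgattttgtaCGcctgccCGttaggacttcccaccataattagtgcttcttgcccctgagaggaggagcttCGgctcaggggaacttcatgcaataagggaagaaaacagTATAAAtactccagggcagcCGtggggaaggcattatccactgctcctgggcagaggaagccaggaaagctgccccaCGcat
Col9a1, chr1:24177360-24177659, + strand: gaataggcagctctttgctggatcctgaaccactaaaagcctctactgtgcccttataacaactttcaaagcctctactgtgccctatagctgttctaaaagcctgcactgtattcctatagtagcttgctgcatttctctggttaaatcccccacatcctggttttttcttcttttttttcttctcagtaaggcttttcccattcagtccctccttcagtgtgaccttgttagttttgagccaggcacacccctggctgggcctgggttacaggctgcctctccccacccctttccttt
Col9a1, chr1:24194953-24195252, + strand: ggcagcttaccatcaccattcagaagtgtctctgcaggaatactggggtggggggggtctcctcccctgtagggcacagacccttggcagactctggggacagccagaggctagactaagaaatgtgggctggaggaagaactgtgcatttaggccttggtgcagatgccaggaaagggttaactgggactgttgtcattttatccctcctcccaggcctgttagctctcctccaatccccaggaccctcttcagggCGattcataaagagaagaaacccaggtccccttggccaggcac
Col19a1, chr1:24587388-24587687, - strand: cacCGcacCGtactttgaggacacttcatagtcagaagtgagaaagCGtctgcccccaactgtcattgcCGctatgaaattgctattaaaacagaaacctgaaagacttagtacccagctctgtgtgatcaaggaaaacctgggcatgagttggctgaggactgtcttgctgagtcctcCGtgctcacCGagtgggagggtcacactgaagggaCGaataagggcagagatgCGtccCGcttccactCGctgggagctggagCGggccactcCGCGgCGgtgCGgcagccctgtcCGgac
Col4a4, chr1:82586800-82587099, - strand: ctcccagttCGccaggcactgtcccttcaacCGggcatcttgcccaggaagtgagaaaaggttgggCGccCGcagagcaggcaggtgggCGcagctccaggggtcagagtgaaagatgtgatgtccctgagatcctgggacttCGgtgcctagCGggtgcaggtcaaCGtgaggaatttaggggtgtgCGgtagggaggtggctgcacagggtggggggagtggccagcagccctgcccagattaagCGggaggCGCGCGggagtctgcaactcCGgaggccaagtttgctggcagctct
Col4a1, chr8:11312777-11313076, - strand: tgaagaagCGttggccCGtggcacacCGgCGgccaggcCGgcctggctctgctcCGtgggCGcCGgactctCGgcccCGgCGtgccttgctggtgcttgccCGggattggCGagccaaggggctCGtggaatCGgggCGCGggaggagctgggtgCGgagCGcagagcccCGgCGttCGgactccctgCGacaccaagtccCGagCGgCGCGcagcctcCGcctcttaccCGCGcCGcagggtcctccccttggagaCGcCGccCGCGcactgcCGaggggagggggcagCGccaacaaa

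The Col10a1 window had 6 CG pairs and a TATAAA 32 bases before the start. TATAAA was searched on both strands, and 13.6% of all 32851 windows hold it. The Col9a1 windows had 0 and 1 CG pairs, and the Col19a1 window had 16. The window of Col4a4 had 14 CG pairs and that of Col4a1 had 37, against a median of 7 over all windows. The windows of Col4a1 and Col4a2 share 78 bases on opposite strands. A match is only a match of letters.

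Windows were found for 40 of the 55 genes, and lower members had about as many CG pairs as members within 2-fold. For the 9 lower members with a window the median was 12 CG pairs (0.5 to 29, averaged over windows of a gene), and for the 23 members within 2-fold it was 11 (0 to 37). Across all genes with a window, 2335 lower genes had a median of 6 and 8704 genes within 2-fold a median of 21. TATAAA was present in 2 of the 9 lower members and in 3 of the 23 within 2-fold, against 19.5% of all lower genes and 8.35% of all genes within 2-fold. These are descriptions without a test.

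Isoforms, with their starts taken from GENCODE M21, were described for the 7 members with several isoforms and 0.5 FPKM or more in each library. In 1 of them a share differed by at least 25 percentage points between the libraries. In Col4a5, NM_001163155 made up 99.9% of the gene in Aire-KO and 52.4% in WT, and NM_007736 the rest, at 0.000643 FPKM in Aire-KO and 0.994 FPKM in WT. Their starts lie only 25 bp apart, so the split rests on internal exons and carries the error of assigning shared reads, which was not measured. Col18a1 has starts 52.8 kb apart, and NM_001109991, from the inner start, made up 69.4% in Aire-KO and 51.9% in WT. Col9a1 has starts 17.6 kb apart. Its short form NM_001290691 made up 86.9% in Aire-KO and 76.9% in WT, and both forms were weaker in Aire-KO. In Col6a3 the longer NM_001243008 made up 12.9% in Aire-KO and 25.3% in WT, and in Col17a1 NM_001290825 made up 72.6% and 60.0% in the same order. Shares of Col2a1 and Lamb3 isoforms moved by less than 2 percentage points.

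**Figure D4:**
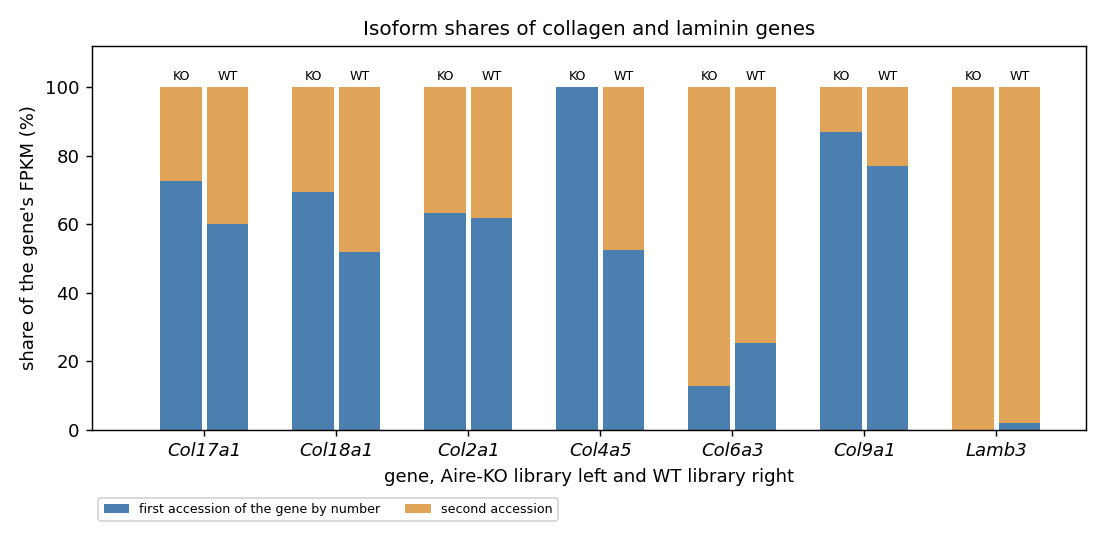
Share of each isoform in its gene's FPKM for the 7 genes with several isoforms and 0.5 FPKM or more in each library, Aire-KO bar left of the WT bar. In Col4a5 one isoform takes 99.9% in Aire-KO and 52.4% in WT, while the Col2a1 bars are nearly alike.

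Genes that fold, modify and export collagen were mostly within 2-fold, and the 3 that passed the rule were higher. Of 19 at the minimum mean, out of 20 listed, 3 were higher (15.8%) and 0 lower, against 7.09% and 20.5% of all genes, with a median log2 ratio of 0.42. P4ha1, the catalytic subunit of prolyl 4-hydroxylase, was at 26.7 FPKM in Aire-KO and 8.75 FPKM in WT, and the lysyl hydroxylase Plod2 at 7.54 and 2.91 FPKM in the same order. The collagen chaperone Serpinh1, named after its value was seen, was at 74.6 FPKM in Aire-KO and 37.0 FPKM in WT. The most abundant of them, Ppib, a proline isomerase, was at 420.7 FPKM in Aire-KO and 329.5 FPKM in WT. P4hb, which is also a disulphide isomerase, was at 300.1 and 303.1 FPKM, Aire-KO before WT. At the low end were P4ha3, at 1.03 FPKM in Aire-KO and 1.99 FPKM in WT, and Leprel4, at 1.92 and 2.96 FPKM in the same order.

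Among processing and cross-linking genes all 4 that passed the rule were lower. They were 4 of 12 at the minimum mean (33.3%), out of 15 listed, against 20.5% lower and 7.09% higher among all genes, with a median of -0.41. The cross-linking transglutaminase Tgm2 was at 25.2 FPKM in Aire-KO and 64.9 FPKM in WT. Pcolce, an enhancer of procollagen cleavage, was at 5.61 FPKM in Aire-KO and 13.4 FPKM in WT, and its relative Pcolce2 at 5.504 and 11.8 FPKM in the same order. Sparc, a collagen-binding matrix protein, was at 20.1 and 41.4 FPKM, Aire-KO before WT. The protease that Pcolce assists, Bmp1, was within 2-fold at 22.4 FPKM in Aire-KO and 12.6 FPKM in WT, as was the lysyl oxidase relative Loxl2 at 8.78 and 5.92 FPKM in the same order.

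Receptors for collagen did not pass the rule in either direction, with 0 of 5 lower or higher, out of 10 listed. Of all genes 20.5% were lower and 7.09% higher. Itgb1, the shared integrin beta chain, was at 66.5 FPKM in Aire-KO and 48.1 FPKM in WT, and the receptor kinase Ddr1 at 29.4 and 34.1 FPKM in the same order. The integrin alpha chains Itga1, at 5.24 FPKM in Aire-KO and 4.06 FPKM in WT, Itga2, at 0.784 and 1.60 FPKM, and Itga11, at 0.472 and 0.768 FPKM, did not pass the rule either. For Itga2 that holds with the 0.1 FPKM added (log2 -0.94) and not without it (log2 -1.03). Of 10 laminin receptors 3 were lower (30%) and 1 higher (10%), against 20.5% and 7.09% of all genes, with a median of 0.12. Itgb4, the hemidesmosome integrin chain, was higher at 51.4 FPKM in Aire-KO and 21.6 FPKM in WT. Lower were the muscle integrin Itga7, at 0.206 FPKM in Aire-KO and 3.09 FPKM in WT, and the syndecans Sdc1, at 47.8 and 117.6 FPKM, and Sdc4, at 61.3 and 125.6 FPKM, Aire-KO before WT. Rpsa, a ribosomal protein also listed as a laminin receptor, was at 201.3 FPKM in Aire-KO and 104.3 FPKM in WT.

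Other basement membrane genes passed the rule in both directions. Of 17 at the minimum mean, out of 21 listed, 6 were lower (35.3%) and 2 higher (11.8%), against 20.5% and 7.09% of all genes, with a median of -0.12. Nid1, which links laminin to type IV collagen, was at 0.694 FPKM in Aire-KO and 4.65 FPKM in WT. Ntn4, a laminin-like netrin, was at 0.148 FPKM in Aire-KO and 1.23 FPKM in WT. The higher genes were Frem2, at 1.79 FPKM in Aire-KO and 0.393 FPKM in WT, and the integrin ligand Npnt, at 14.4 and 6.64 FPKM in the same order. The cytoskeletal linkers Dst, at 14.7 FPKM in Aire-KO and 9.47 FPKM in WT, and Plec, at 12.7 and 13.9 FPKM, were within 2-fold.

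In the list of non-collagen genes of cartilage and bone most genes at the minimum mean were lower. Of 20 at the minimum mean, out of 28 listed, 14 were lower (70%) and 1 higher (5%), with a median of -2.21. The shares over all genes were 20.5% and 7.09%, not matched for level. Some of the 14 reached the minimum through WT alone, so their calls depend on the same values as the filter. Between 0.5 and 2 FPKM, 44.2% of all genes were lower. The 70% is therefore a description only. The osteocalcin gene Bglap was at 0.299 FPKM in Aire-KO and 10.4 FPKM in WT, and its near copy Bglap2 was listed at 0 in Aire-KO and stood at 4.19 FPKM in WT, so that reads shared between them make both uncertain. Epyc, a small cartilage proteoglycan, was higher at 35.6 FPKM in Aire-KO and 8.61 FPKM in WT. Matn1 was at 18.7 FPKM in Aire-KO and 9.92 FPKM in WT, and Ucma at 55.8 and 65.2 FPKM in the same order, both within 2-fold. Sparc, given above, belongs to this list too.

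Markers of other cell types, only some of which make collagen, also differed between the libraries. Of 11 fibroblast and mural markers at the minimum mean, out of 15 listed, 5 were higher (45.5%) and 0 lower, against 7.09% and 20.5% of all genes. The summed level of all 15 was 476.4 FPKM in Aire-KO and 334.9 FPKM in WT. Rgs5, not past the rule, made up 212.0 FPKM of that sum in Aire-KO and 197.1 FPKM in WT. Dcn stood at 85.9 FPKM in Aire-KO and 34.5 FPKM in WT and Pdgfra at 0.402 and 0.565 FPKM in the same order, while Twist2 was listed at 0 in Aire-KO and stood at 0.244 FPKM in WT. Of 7 endothelial markers at the minimum, out of 9 listed, 5 were lower (71.4%), against 20.5% of all genes. The sum of all 9 was 14.8 FPKM in Aire-KO and 42.9 FPKM in WT, with none listed at 0. Dendritic cell and macrophage markers included 4 lower of 5 (80%) and thymocyte markers 2 lower of 6 (33.3%), against 20.5% of all genes. Their summed levels were 440.5 and 16.0 FPKM in Aire-KO, against 698.3 and 27.8 FPKM in WT. Lyz2, not past the rule, made up 436.4 FPKM of the first sum in Aire-KO and 675.5 FPKM in WT. That sum therefore says little of the 4 lower genes, such as Itgam at 0.614 FPKM in Aire-KO and 9.40 FPKM in WT. Of 5 markers of cortical epithelium 1 was lower (20%), near the 20.5% of all genes. Some lower endothelial, dendritic cell and macrophage markers reached the minimum mean through WT alone. Their shares depend on the same values as the filter and are a description only. Between 0.5 and 2 FPKM, 44.2% of all genes were lower. The part of such cells in the collagen and laminin values was not tested. In bulk RNA, fewer cells of a type and less RNA per cell cannot be told apart.

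**Figure D5:**
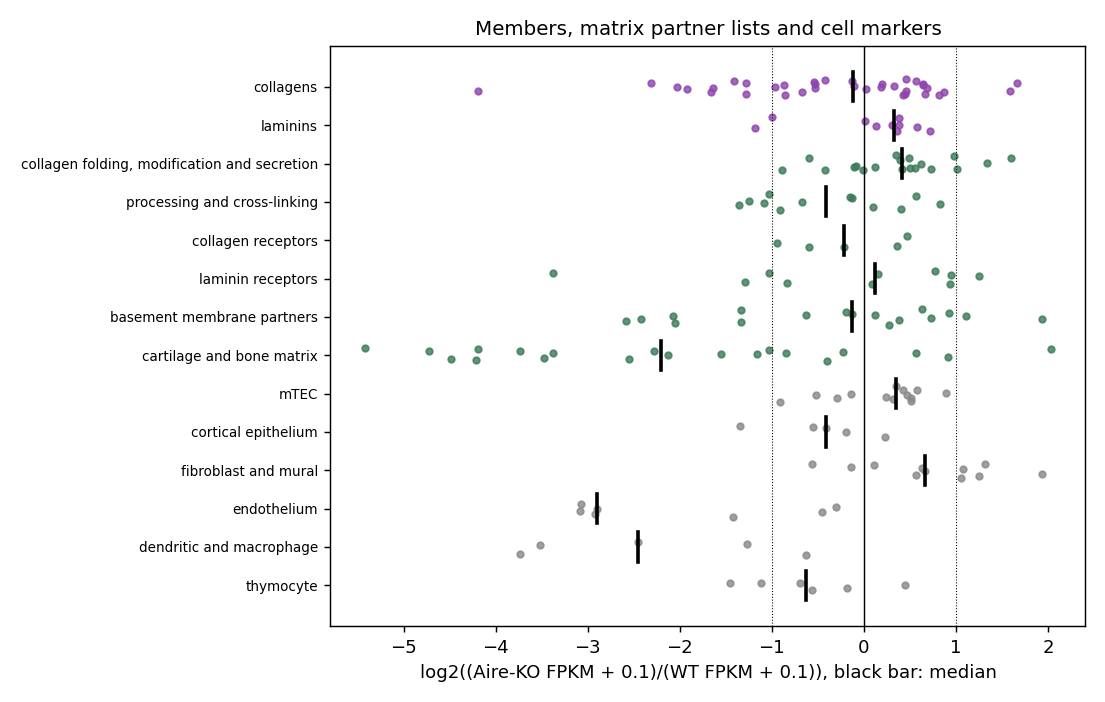
Log2 ratios, with 0.1 FPKM added to each value, of the genes at the minimum mean in each list, with a black bar at the median. Collagens have a median of -0.12 with ratios from -4.20 to 1.67, and laminins a median of 0.33. The medians furthest right belong to the fibroblast and mural markers and the folding genes. Those furthest left belong to the endothelial markers, the dendritic cell and macrophage markers and the cartilage and bone matrix list.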

How the data were processed

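RNA of 1 Aire-KO and 1 WT library of sorted mTECs was measured. The tools named per the submitters' processing notes are Cuffdiff and TopHat2, and the build is mm10. Their versions, the annotation release, any scaling between libraries and whether counting used strand are not stated in those notes. The library kit was stranded and selected poly(A) RNA, per the labels' protocols. The authors deposited FPKM per gene and per isoform, with a p-value and a q-value that compare these 2 libraries. FPKM depends on library composition and on how reads shared by overlapping genes or isoforms were split.

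Computed here with Python 3.11.15, pandas 2.3.3 and scipy 1.17.1 were log2 ratios with 0.1 FPKM added and a 2-fold rule at a mean of 0.5 FPKM or more. Genes with no estimate because of high coverage (5) were left out. Fragments were estimated from FPKM times effective length, the length in GENCODE M21 less 210 bp in Aire-KO and 200 bp in WT. Of 462 and 190 values of up to 5 fragments in genes of 2000 bp or more with 1 isoform, 78.6% and 76.8% lay within 0.1 of a whole number, where chance gives 20% for a fixed step. Step and length were fitted to these values, so depth is approximate. Ratio intervals are exact conditional binomial, and since reads carry no molecular identifiers they cover counting error only. A count of 0 allows up to 0.0305 FPKM in Aire-KO and 0.0348 FPKM in WT for a transcript of 2000 bp (3 counts). The code of the estimate was run on simulated whole fragments of genes with 1 isoform, drawn under the model that it assumes. That run checks the code and not how well the model holds for these data. Every member at the minimum mean is named except 1 that is not reported here, and of each partner list the 2 lowest, 2 highest and 2 most abundant genes. Members and lists were chosen with earlier results of these data known. Alternatives were other pseudocounts, minimum means and folds, rescaling, and looser symbol matching.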

Additional observations from a re-analysis of the deposited data

How the results depend on the processing

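With 1 library per genotype, no paired analysis was possible because a block needs at least 2 pairs, and no library could be left out. The 11 lower members became 4 with 1 FPKM added, 18 with no minimum, 4 at a mean of 2 FPKM and 3 at 4-fold, and the 2 higher became 0 at 4-fold. With 0.01 FPKM added the same 11 and 2 were called. Lower genes over the whole table numbered 3260 of 15906, and 2416 of 15906 with 1 FPKM added. With no minimum there were 5180, at a mean of 2 FPKM 1804 (14.3%) and at 4-fold 1893 (11.9%). Higher genes numbered 1128, against 701 with 1 FPKM added and 100 at 4-fold. Partner genes counted 26 lower, against 14 at a mean of 2 FPKM and 16 at 4-fold, and 7 higher, against 1 at 4-fold.

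The median log2 ratio of the members moved to -0.13 with no minimum and 0.35 at a mean of 2 FPKM, and that of the collagens, -0.12, to -0.47 and 0.33. With no minimum the fibrillar median, -0.13, was -0.54, that of the type IV chains, 0.46, was -0.60, and that of the transmembrane collagens, -1.92, was -1.17. The transmembrane median was -0.76 with 1 FPKM added and -0.42 at a mean of 2 FPKM. With 1 FPKM added the type VI median, 0.60, was 0.38. At a mean of 2 FPKM the FACIT median, 0.42, was 0.69. Rescaling to a median of 0 over all genes, a factor of 0.957, gave a type IV median of 0.39 and sums of 0.23 for collagens and 0.15 for laminins on the log2 scale. It added Col1a1 to the lower genes. Without the most abundant member these sums were 0.26 and 0.16. The members with an isoform share shift, 1, became 0 at 2 FPKM in each library. Of 138 ratios of single members under other pseudocounts and the rescaling, 31 moved beyond the counting interval and 0 of a called member changed sign. Under the rescaling the ratios of Col18a1, 0.02, and Lamb3, 0.01, became -0.04 and -0.05. The settings that drop or damp weak genes (a mean of 2 FPKM, 1 FPKM added) each lost the same 7 lower members, Col4a5, Col8a1, Col20a1, Col13a1, Col23a1, Col26a1 and Lama1. Depth limits the weakest values, such as Col11a1 on 1 fragment.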
